A study of Vitis vinifera with 72 samples.

Results

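The grapevine (Vitis vinifera) anthocyanin O-methyltransferase genes AOMT1 (VIT_01s0010g03510), AOMT2 (VIT_01s0010g03490) and AOMT3 (VIT_01s0010g03470) were followed through berry development. They were taken by ID, as 3 of the 29971 genes in the expression table, and all 3 had a row. RNA came from berry pericarp (skin and flesh, without seeds) of the cultivars Sangiovese and Cabernet Sauvignon, both with coloured berries. Berries were collected at mid-ripening (MR, BBCH 83) and pre-veraison (PV, BBCH 79), veraison being the time when berries soften and colour and BBCH a code for plant growth stages. Vines grew in Bolgheri on the Tuscan coast, Montalcino in inland Tuscany and Riccione on the Adriatic coast, and both the 2012 and the 2011 season were sampled. Each of the 24 combinations was a group of 3 biological replicates, which gave 72 libraries, 18 for each cultivar and stage. An area in a year is called an environment below, so each cultivar and stage was seen in 6 environments. As far as the labels tell, an area stands for 1 sampling site per cultivar, and a year and a sequencing batch cannot be told apart.

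Anthocyanins are the red to blue pigments of grape skin. Anthocyanin O-methyltransferases transfer a methyl group from S-adenosylmethionine to a hydroxyl group on the pigment's B ring, turning cyanidin-type pigments into peonidin-type ones and delphinidin-type pigments through petunidin-type into malvidin-type ones. Methylation makes pigments more stable and shifts their hue, and malvidin-type pigments dominate most dark grapes. Pigment synthesis starts at veraison in the skin, so berries before veraison are green. AOMT1 is the member with the best described enzyme activity on anthocyanins; AOMT2 and AOMT3 are neighbouring copies by their IDs.

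Levels are in FPKM, fragments mapped per unit of transcript length and of library size, so that levels of different genes can be set side by side. A gene was tested when its mean reached at least 1 FPKM in at least 1 group, which 20443 genes did. AOMT1 and AOMT2 passed this filter and AOMT3 did not. AOMT2 passed only through Cabernet Sauvignon at MR. Its highest mean in any other group was 0.6 FPKM, in Sangiovese at Montalcino in 2012 at MR. Its calls and ranks in comparisons with Cabernet Sauvignon at MR thus use the groups through which it entered the tests. Differences are on the log2(FPKM + 1) scale, which understates the change of low values, and adjusted p is limma's with Benjamini-Hochberg adjustment over all 20443 genes, two-sided, called below 0.05. Overlap between the libraries of groups was checked for the members only, so counts of groups that do not overlap have no background from other genes. Across genes, replicates correlated at 0.982 or more. Relative sequencing depth ranged from 0.522 to 2.248 times the median library. The members are close relatives, and how many of their reads map equally well to another copy was not tested. Their sequences were not used here.

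AOMT1 was the most abundant member in each of the 72 libraries, from 0.261 to 167 FPKM. Its group means fell into 3 steps. The 6 Sangiovese MR groups had means between 16.4 and 48.6 FPKM, below the 6 Cabernet Sauvignon MR groups with 76.1 to 153 FPKM, and all 12 PV groups lay between 0.326 and 1.83 FPKM. Within a step, the ranges of neighbouring groups overlapped, except that Sangiovese at Bolgheri in 2012 stood below the next Sangiovese MR group and above every PV group. Library ranges also crossed between the MR steps. Sangiovese at Bolgheri in 2011 reached 62 FPKM, and Cabernet Sauvignon at Riccione in 2012 began at 52.7 FPKM. AOMT2 was lower throughout, and 13 of 72 libraries listed it at 0. Its Sangiovese MR groups (means of 0.272 to 0.60 FPKM) were interleaved with 5 of the 6 Cabernet Sauvignon PV groups (0.245 to 0.513 FPKM), with overlapping ranges. The 6 Cabernet Sauvignon MR groups, with means from 7.25 to 13.4 FPKM, stood apart from all others. AOMT3 was listed at 0 in 70 of 72 libraries.

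**Figure D1:**
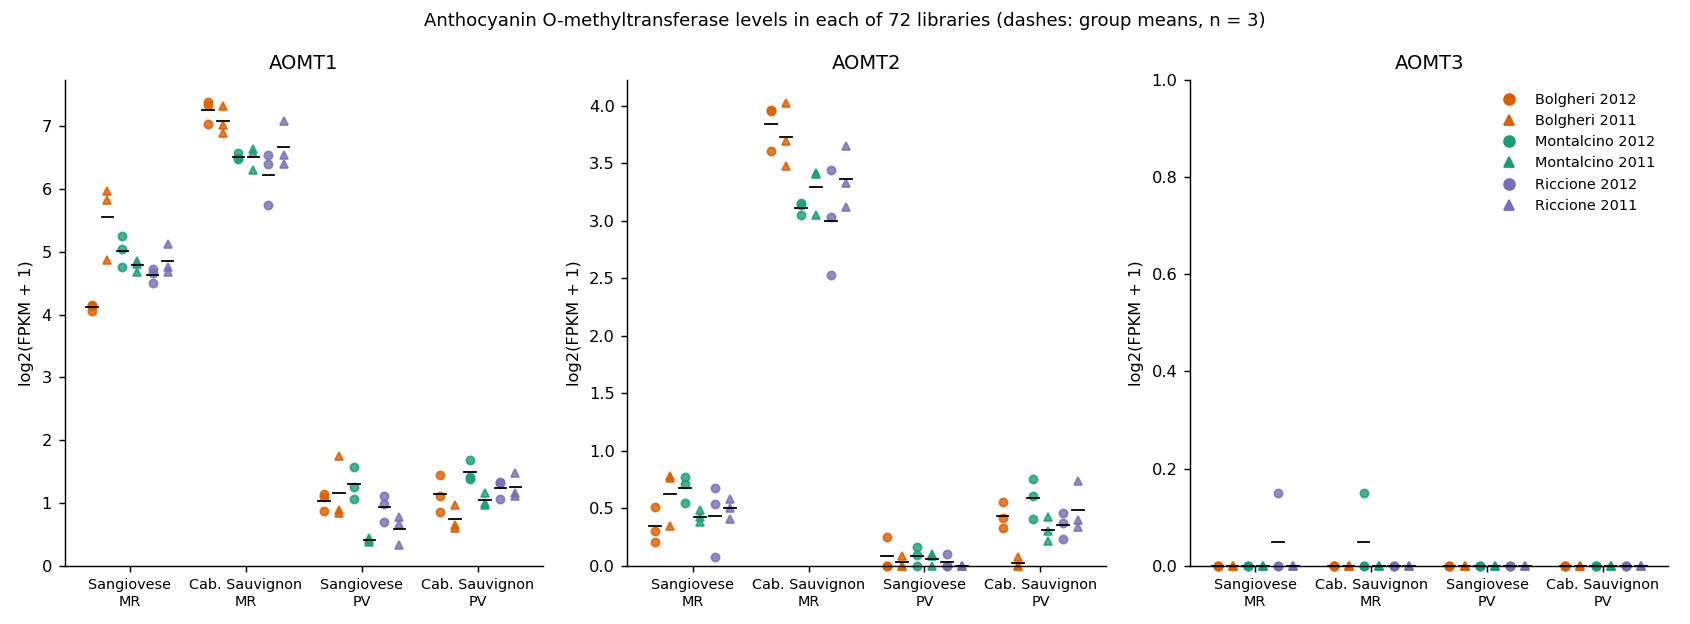
Levels of AOMT1, AOMT2 and AOMT3 as log2(FPKM + 1), with 1 point per library, coloured by area and shaped by year; short dashes are means of the 3 libraries of a group. AOMT1 is high at MR in both cultivars, AOMT2 at MR in Cabernet Sauvignon, and AOMT3 lies at 0 in 70 of 72 libraries. The vertical scales differ between the panels.

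AOMT1 rose at ripening in both cultivars. In Sangiovese, the MR libraries held 15.7 FPKM at the lowest, 26.1 at the median and 62 at the highest, against 0.261, 0.839 and 2.37 FPKM in the PV libraries. In Cabernet Sauvignon, the MR libraries held 52.7, 94.5 and 167 FPKM at these points, against 0.510, 1.20 and 2.23 FPKM in the PV libraries. The stages did not overlap: in all 12 matched pairs of groups every MR library was above every PV library. For other genes such pairs were not counted. The mean at MR was 31.1 times the mean at PV in Sangiovese and 85.8 times in Cabernet Sauvignon. On the log2(FPKM + 1) scale the difference between MR and PV was 3.92 in Sangiovese (SE 0.085, adjusted p = 7.3e-42) and 5.56 in Cabernet Sauvignon (SE 0.085, adjusted p = 5.8e-49). Over both cultivars it was 4.74 (SE 0.060, adjusted p = 3.1e-53), the 57th highest of 20443 genes.

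AOMT2 rose as well, from a lower base. In Sangiovese, its MR libraries held 0.0538 to 0.712 FPKM with a median of 0.421, against 0 to 0.192 FPKM in the PV libraries, of which 11 of 18 were at 0. In Cabernet Sauvignon, the MR libraries held 4.77 to 15.3 FPKM with a median of 9.62, against 0 to 0.691 FPKM with a median of 0.304 in the PV libraries. The Sangiovese MR mean of 0.426 ± 0.190 FPKM lay beside the Cabernet Sauvignon PV mean of 0.303 ± 0.196 FPKM (SD, n = 18 each), a pair whose difference was not tested. From the most recurrent of its depth-adjusted values, 1 fragment was worth about 0.062 FPKM of AOMT2 in a library of median depth. The Sangiovese MR values then stand for an estimated median of 7 fragments (1 to 13), and the Cabernet Sauvignon MR values for 151 (83 to 300). The Sangiovese values are therefore much less precise.

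The difference in AOMT2 between MR and PV was 0.45 in Sangiovese (SE 0.061, adjusted p = 1.9e-09) and 3.02 in Cabernet Sauvignon (SE 0.061, adjusted p = 2.0e-43). Every MR library was above every PV library in 10 of 12 matched pairs of groups. Both tested members thus passed as higher at MR, where 33.4% of all tested genes did over both cultivars, 33.3% in Sangiovese and 30.3% in Cabernet Sauvignon. The increase of each was smaller in Sangiovese. The difference between the cultivars' stage differences was -1.64 for AOMT1 (SE 0.12, adjusted p = 1.8e-17) and -2.57 for AOMT2 (SE 0.086, adjusted p = 1.3e-31), the 175th and the 40th lowest values. Of all tested genes, 25.3% passed in that direction. As ratios of means, MR over PV was 31.1 in Sangiovese and 85.8 in Cabernet Sauvignon for AOMT1, and 11.9 and 32.4 for AOMT2. The log2(FPKM + 1) scale compresses the low Sangiovese values of AOMT2. Its larger interaction value and rank thus do not show a stronger dependence on cultivar than that of AOMT1. In bulk pericarp, fewer cells of a type, such as skin cells, and less RNA per cell cannot be told apart.

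No stage or cultivar difference of AOMT3 was detectable at this depth. A value above 0 was found in 1 Sangiovese MR library from Riccione in 2012 and in 1 Cabernet Sauvignon MR library from Montalcino in 2012, at 0.109 FPKM in each. With no filter on low values it entered the limma fit among 26465 genes, and its smallest adjusted p over the main comparisons was 0.15, for 2012 against 2011 at MR.

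The cultivars differed most at mid-ripening, where Sangiovese had less of both tested members in all 6 environments. AOMT1 averaged 29.2 ± 12.2 FPKM in Sangiovese and 108 ± 32.1 FPKM in Cabernet Sauvignon (SD, n = 18 each), a ratio of 3.70 between the cultivar means. Its difference was -1.88 (SE 0.085, adjusted p = 1.4e-26), the 175th lowest of 20443 genes. AOMT2 averaged 0.426 ± 0.190 FPKM in Sangiovese and 9.83 ± 2.88 FPKM in Cabernet Sauvignon, a ratio of 23.1 between the cultivar means. Its difference was -2.89 (SE 0.061, adjusted p = 1.4e-41), the 60th lowest. At MR 25.7% of all tested genes were lower in Sangiovese. For both members, every Sangiovese library lay below every Cabernet Sauvignon library in 6 of 6 environments. How many other tested genes separate in this way was not counted.

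For AOMT1, Bolgheri in 2012 stood apart from the other environments. There the 3 Sangiovese libraries held 15.7, 16.6 and 16.8 FPKM, and the 3 Cabernet Sauvignon libraries 131, 161 and 167 FPKM. The ratio of the Cabernet Sauvignon mean to the Sangiovese mean was 9.33 there, against 2.79 to 3.68 in the other 5 environments. On the log2 scale the difference was -3.14 at Bolgheri in 2012 (SE 0.207, adjusted p = 7.7e-19) and between -1.82 and -1.50 elsewhere, with every environment past the threshold. The share of all tested genes lower in Sangiovese at MR was 27.4% at Bolgheri in 2012 and 20.9% in 2011, 16.7% at Montalcino in 2012 and 15.5% in 2011, and 19.2% at Riccione in 2012 and 17.3% in 2011. The cultivar difference varied with the environment for AOMT1 (F = 9.17, adjusted p = 1.1e-05), as it did for 67.2% of tested genes. Without Bolgheri in 2012, a comparison chosen after its value was seen, F fell to 0.445 (adjusted p = 0.85) over the other 5 environments.

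The cultivar difference of AOMT2 also varied with the environment (F = 6.56, adjusted p = 2.4e-04), a call lost at a pseudocount of 0.1 (F = 2.08, adjusted p = 0.11). Its cultivar difference ran from -3.50 at Bolgheri in 2012 and -3.10 at Bolgheri in 2011 to -2.44 at Montalcino in 2012, and all 6 passed the threshold. The ratio of means was highest at Bolgheri in 2012, at 49.3, and lowest at Montalcino in 2012, at 12.8. Without Bolgheri in 2012 the interaction of AOMT2 stayed past the threshold, with F = 3.17 (adjusted p = 0.043). The Sangiovese means behind these ratios rest on a few fragments per library.

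**Figure D2:**
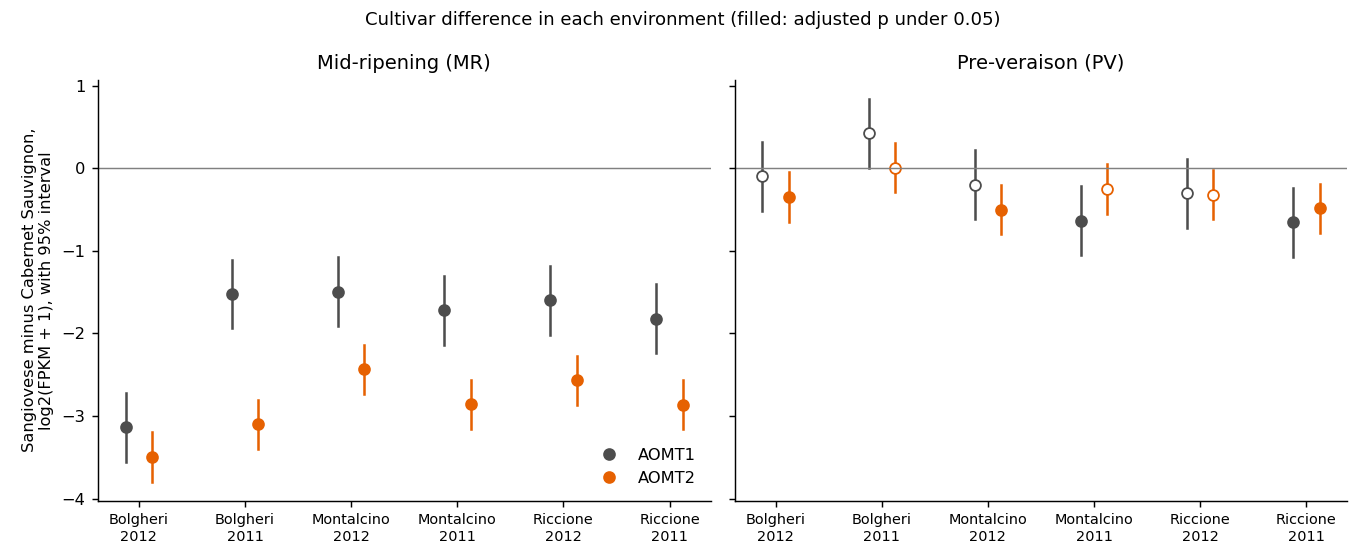
Difference between Sangiovese and Cabernet Sauvignon in log2(FPKM + 1) in each environment, at MR (left) and PV (right), with 95% intervals from limma; filled points had an adjusted p under 0.05. At MR all 12 differences are below 0, and AOMT1 at Bolgheri in 2012 (-3.14) lies apart from its other 5 environments. At PV they lie between -0.66 and 0.42.

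Before veraison both tested members were at low levels. AOMT1 averaged 0.941 ± 0.564 FPKM in Sangiovese and 1.26 ± 0.445 FPKM in Cabernet Sauvignon (SD, n = 18 each), a difference of -0.25 (SE 0.085, adjusted p = 0.0082). AOMT2 averaged 0.0359 ± 0.0547 FPKM in Sangiovese and 0.303 ± 0.196 FPKM in Cabernet Sauvignon, a difference of -0.32 (SE 0.061, adjusted p = 6.4e-06). The ratio of the Cabernet Sauvignon mean to the Sangiovese mean was 1.34 for AOMT1 and 8.45 for AOMT2, whose log2(FPKM + 1) difference understates it. Both members were thus lower in Sangiovese, as were 34.8% of tested genes. The Sangiovese libraries all lay below the Cabernet Sauvignon ones in 2 of 6 environments for AOMT1 and in 5 of 6 for AOMT2. With group means as the unit the AOMT1 difference was not called (adjusted p = 0.35). AOMT1 passed in single environments at Riccione in 2011 (-0.66, adjusted p = 0.0078) and Montalcino in 2011 (-0.63, adjusted p = 0.009), where 21.4% and 24.8% of tested genes were lower in Sangiovese, while Bolgheri in 2011 had the opposite sign (0.42, adjusted p = 0.082). The Riccione call was lost without either of 2 libraries (adjusted p up to 0.061). The difference of AOMT1 varied with the environment at PV too (F = 3.71, adjusted p = 0.011), where 68.1% of tested genes did. That call was lost without 1 Sangiovese library from Bolgheri in 2011, the highest of all PV libraries at 2.37 FPKM (F = 2.37, adjusted p = 0.075).

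The balance between the members differed as well. AOMT2 made up 1.47% ± 0.579 of the 3 genes' summed FPKM in Sangiovese at MR and 8.36% ± 0.599 in Cabernet Sauvignon (SD, n = 18 each). The shares did not overlap, since the Sangiovese libraries ran from 0.249% to 2.47% and the Cabernet Sauvignon libraries from 7.11% to 9.67%. Over the 6 environments the mean share differed by -6.88 percentage points between Sangiovese and Cabernet Sauvignon, lower in Sangiovese in 6 of 6, with p = 0.031 in a two-sided exact paired permutation test, the smallest it can give with 6 pairs. Put as a ratio, AOMT1 was a median of 70.3 times AOMT2 in Sangiovese MR libraries (39.5 to 401) and 11.1 times in Cabernet Sauvignon MR libraries (9.34 to 13.1). This ratio thus varied little among the Cabernet Sauvignon libraries, although AOMT1 itself spanned 3.16-fold there. AOMT1 and AOMT2 thus differed by unequal amounts between the cultivars at MR.

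At PV the share of AOMT2 was 4.48% ± 6.46 in Sangiovese and 17.6% ± 9.24 in Cabernet Sauvignon (SD, n = 18 each), also lower in 6 of 6 environments (exact permutation p = 0.031). These shares rest on few fragments, and the p became 0.062 without any 1 of 3 PV libraries from Bolgheri in 2011. Between stages, over both cultivars, the share of AOMT2 differed by -6.14 percentage points between MR and PV (lower at MR in 10 of 12 matched pairs, exact permutation p = 0.013). Within Sangiovese (p = 0.094) and within Cabernet Sauvignon (p = 0.062) alone, the same exact permutation test with 6 pairs each missed the threshold.

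The tested members varied together over the 6 environments at MR in Cabernet Sauvignon. Over the environment means of log2(FPKM + 1), Pearson's r was 0.983 (exact permutation p = 0.003, adjusted 0.017 over 6 relations) and Spearman's rho 0.943 (exact permutation p = 0.017, adjusted 0.10), with r of 0.889 after leaving out the 2 environments farthest from the median. In Sangiovese, r was 0.846 (exact permutation p = 0.026, adjusted 0.079) and rho 0.886 (exact permutation p = 0.033, adjusted 0.10), with r of 0.902 without the 2 farthest. The Sangiovese relation thus did not pass the adjustment. The 2 genes of a library share its depth, and any reads shared between the copies would also tie them. The other 4 relations involve AOMT3 and rest on 1 library above 0 in each cultivar.

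**Figure D3:**
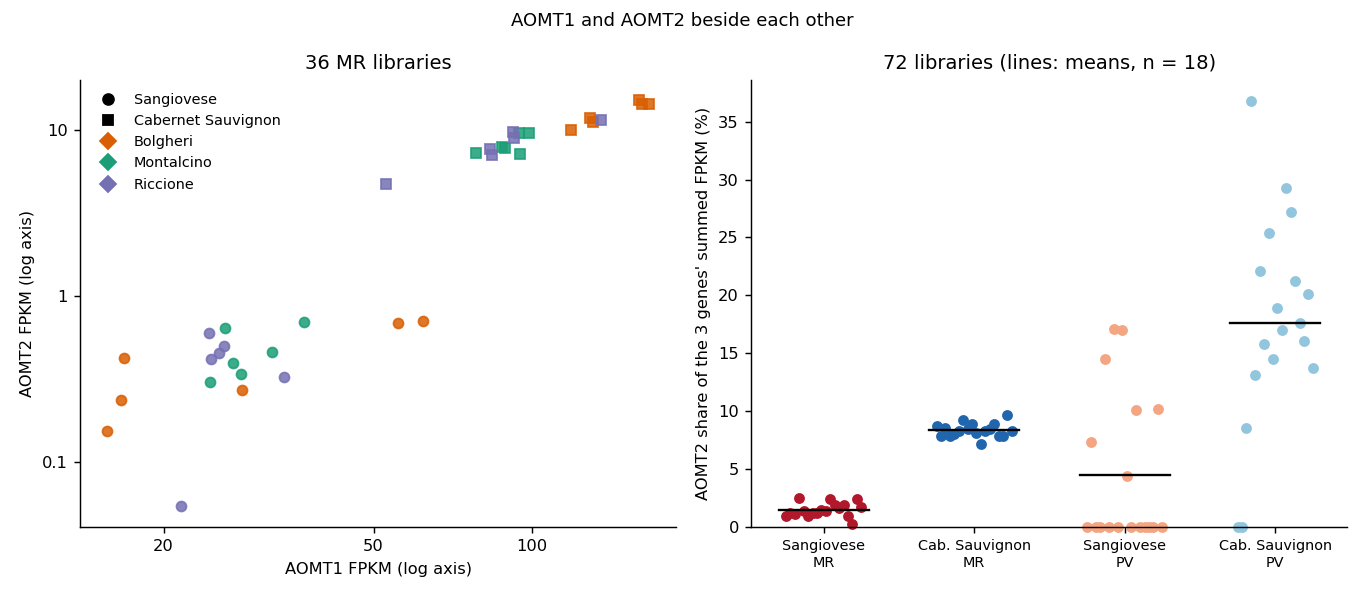
Left, AOMT2 against AOMT1 in the 36 MR libraries, both in FPKM on log axes, with cultivar by shape and area by colour. Right, share of AOMT2 in the summed FPKM of the 3 genes, 1 point per library, with means as lines. At MR the Sangiovese shares (0.249% to 2.47%) lie below all Cabernet Sauvignon shares (7.11% to 9.67%); the PV shares scatter widely.

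In Cabernet Sauvignon at MR, both tested members were highest at Bolgheri. At Bolgheri AOMT1 averaged 144 FPKM, against 90.4 at Montalcino and 89.8 FPKM at Riccione. The area differences were 0.66 over Montalcino (SE 0.146, adjusted p = 1.7e-04) and 0.72 over Riccione (SE 0.146, adjusted p = 1.1e-04), where 22.7% and 14.2% of tested genes were higher at Bolgheri. AOMT2 averaged 12.9 FPKM at Bolgheri, against 8.24 at Montalcino and 8.33 FPKM at Riccione, with differences of 0.58 (SE 0.105, adjusted p = 6.1e-06) and 0.60 (SE 0.105, adjusted p = 8.7e-06). The F-test over the 3 areas passed for AOMT1 (F = 14.8, adjusted p = 3.1e-05) and AOMT2 (F = 21.3, adjusted p = 9.6e-07), as it did for 60.3% of tested genes in Cabernet Sauvignon. Montalcino and Riccione differed by 0.06 for AOMT1 (95% interval -0.24 to 0.35) and by 0.02 for AOMT2 (-0.19 to 0.23). In Sangiovese at MR the F-test did not pass for AOMT1 (F = 0.604, adjusted p = 0.66) or AOMT2 (F = 0.379, adjusted p = 0.78). The test averages both years of an area. For AOMT1 the highest and the lowest Sangiovese MR groups both came from Bolgheri, with 48.6 FPKM in 2011 and 16.4 FPKM in 2012. Before veraison the F-test did not pass for AOMT1 in Sangiovese (F = 2.83, adjusted p = 0.099) or Cabernet Sauvignon (F = 3.18, adjusted p = 0.095), nor for AOMT2 (F = 0.157, adjusted p = 0.89, and F = 2.64, adjusted p = 0.14). The AOMT1 difference of Bolgheri over Riccione at PV was 0.34 in Sangiovese, called by a narrow margin (adjusted p = 0.05) and lost without any 1 of 50 libraries, and -0.31 in Cabernet Sauvignon (adjusted p = 0.1).

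For AOMT1 a season difference was called at each stage, with opposite signs. At MR it averaged 65.2 FPKM in 2012 and 72.1 FPKM in 2011, a difference of -0.28 (SE 0.085, adjusted p = 0.0057), where 19.6% of tested genes were lower in 2012. At PV it averaged 1.32 FPKM in 2012 and 0.885 FPKM in 2011, a difference of 0.32 (SE 0.085, adjusted p = 8.6e-04), where 25.1% of tested genes were higher. With group means as the unit neither difference was called (adjusted p = 0.66 at MR and 0.31 at PV), and at a pseudocount of 5 the PV difference was 0.10 and not called. At PV, 4 of the 6 combinations of cultivar and area were higher in 2012. For AOMT2 the season difference was -0.09 at MR (95% interval -0.21 to 0.03, adjusted p = 0.25) and 0.11 at PV (-0.01 to 0.23, adjusted p = 0.11).

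At MR the season call of AOMT1 depended on Sangiovese at Bolgheri. There the libraries held 15.7, 16.6 and 16.8 FPKM in 2012, against 28.2, 55.7 and 62 FPKM in 2011. The 2012 libraries were tightly grouped and the 2011 ones widely spread, with no overlap. The difference was -1.44 (SE 0.207, adjusted p = 1.3e-07), where 20.9% of tested genes were lower. It stayed between -1.78 and -1.23 when each library was left out in turn. In the other 5 combinations of cultivar and area the difference ran from -0.45 to 0.24, and none passed the threshold; 1 of them, Cabernet Sauvignon at Riccione, had a 95% interval without 0 (-0.86 to -0.03, adjusted p = 0.15). Without Bolgheri, an alternative chosen after seeing the data, the season difference of AOMT1 at MR was -0.11 over both cultivars (adjusted p = 0.47) and 0.01 in Sangiovese (adjusted p = 1). AOMT1's season difference also varied with the area over both cultivars (F = 6.70, adjusted p = 0.007), as it did for 52.0% of tested genes. In Cabernet Sauvignon at Bolgheri, AOMT1 averaged 153 FPKM in 2012 and 135 FPKM in 2011, a difference of 0.18 (SE 0.207, adjusted p = 0.56). The test of season by cultivar over all 3 areas gave -0.39 (SE 0.169, adjusted p = 0.079), and -0.50 without the lowest of the 3 Sangiovese libraries from Bolgheri in 2011 (adjusted p = 0.01). AOMT2 in Sangiovese at Bolgheri averaged 0.272 FPKM in 2012 and 0.558 FPKM in 2011, a difference of -0.29 (SE 0.149, adjusted p = 0.12), and -0.43 without that same library, which was called (adjusted p = 0.03).

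At PV the AOMT1 difference was largest in Sangiovese at Montalcino. Its libraries held 1.08, 1.39 and 1.97 FPKM in 2012, against 0.293, 0.324 and 0.361 FPKM in 2011, which did not overlap (difference 0.89, SE 0.207, adjusted p = 5.3e-04), in a contrast where 20.9% of tested genes were higher in 2012. The season difference varied with the area at PV (F = 4.24, adjusted p = 0.037), where 55.8% of tested genes did; F ran from 2.99 to 5.32 with single libraries left out (adjusted p up to 0.096). AOMT2 passed in a single combination, Cabernet Sauvignon at Bolgheri, with 0.258, 0.330 and 0.469 FPKM in 2012 against 0, 0 and 0.0533 FPKM in 2011 (difference 0.41, SE 0.149, adjusted p = 0.027), where 17.7% of tested genes were higher in 2012. That call was lost without any 1 of 4 of its libraries (adjusted p up to 0.11).

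**Figure D4:**
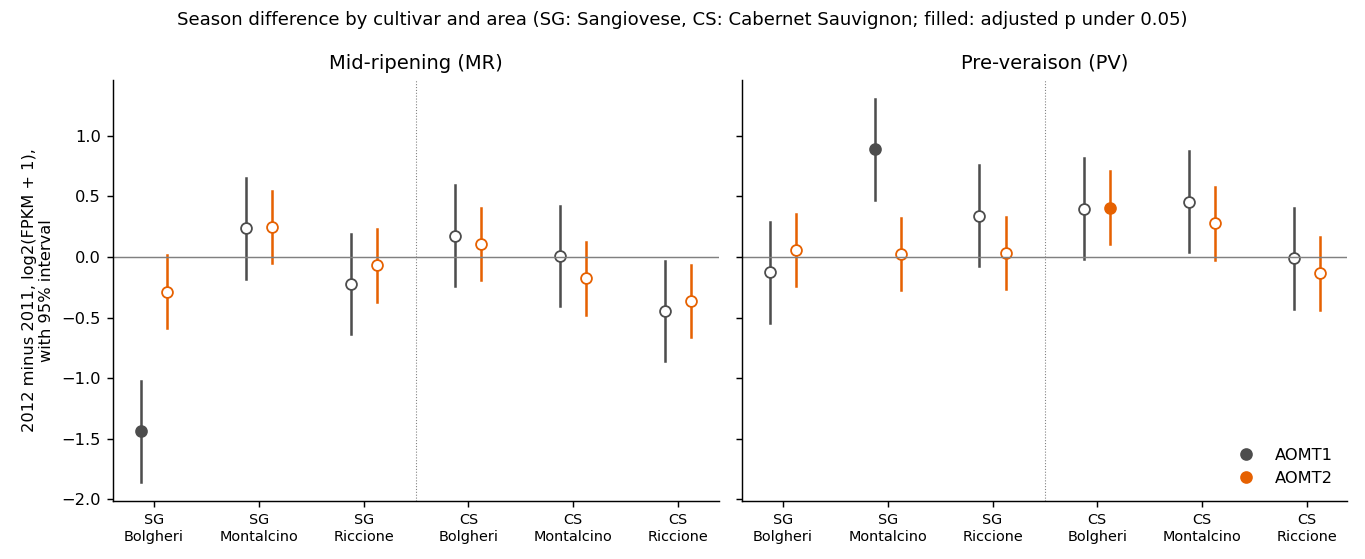
Difference between 2012 and 2011 in log2(FPKM + 1) for AOMT1 and AOMT2 by cultivar and area, at MR (left) and PV (right), with 95% intervals from limma; filled points had an adjusted p under 0.05. AOMT1 in Sangiovese at Bolgheri (-1.44 at MR) and at Montalcino (0.89 at PV) and AOMT2 in Cabernet Sauvignon at Bolgheri (0.41 at PV) are filled.

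Other genes of pigment synthesis were counted from lists of IDs recalled from published grapevine gene names. Of 8 genes of late anthocyanin steps (activators, glucosyltransferase, transport and acyltransferase), 7 were higher and 1 lower at MR, with a median difference of 4.85, against -0.23 over all tested genes. At MR, 0 of these 8 were higher and 5 lower in Sangiovese, where 25.7% of all tested genes were lower. Their median was -0.47 against 0.08 over all tested genes, and with median-of-ratios scaling all 8 were lower. Of the 14 IDs listed for flavonoid 3',5'-hydroxylase, the enzyme family that makes the delphinidin-type substrates, 7 were tested. At MR 6 of these 7 were lower and 0 higher in Sangiovese, with a median of -1.79. Flavonoid 3'-hydroxylase makes the cyanidin-type substrates, and all 3 of its listed IDs passed as higher in Sangiovese at MR (median 0.38). Quantile normalization kept 2 of these 3 calls and gave a median of 0.24. Of 9 genes of the shared earlier flavonoid steps, 3 were higher and 4 lower in Sangiovese at MR, with a median of -0.09. The share of all tested genes higher in Sangiovese at MR is not given here, so counts called higher lack that background. For comparison, the cultivar differences of AOMT1 and AOMT2 at MR were -1.88 and -2.89.

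In the comparison of MR with PV, 33.4% of all tested genes were higher. All 9 genes of the shared steps were higher at MR, with a median of 1.5, and so were 6 of 7 tested flavonoid 3',5'-hydroxylase IDs, with a median of 1.48. Of the 3 flavonoid 3'-hydroxylase IDs, 0 were higher and 2 lower at MR, with a median of -0.19; with quantile normalization 2 were higher and 0 lower. The 3 tannin genes were all lower at MR, with a median of -1.99, against -0.23 over all tested genes. The share of all tested genes lower at MR is not given here. AOMT1, at 4.74, lay near the median of the late steps. AOMT2 rose by 0.45 in Sangiovese, where the shared steps had a median of 1.41, and by 3.02 in Cabernet Sauvignon, where they had a median of 2.14. The log2(FPKM + 1) scale understates the rise of AOMT2 at its low levels. Its MR mean was 11.9 times its PV mean in Sangiovese and 32.4 times in Cabernet Sauvignon. Whether it rose less than the shared steps in Sangiovese cannot be read from these differences.

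The patterns most like each member were ranked by Pearson's r of group means of log2(FPKM + 1), among genes with a group mean of at least 10 FPKM in at least 1 group; r is a description here, since all genes share the libraries and the stage change. For AOMT1 over the 24 groups, the closest of 13470 genes were VIT_00s0225g00230 (r = 0.983) and VIT_12s0035g01050 (r = 0.981). Over the 12 MR groups the closest were VIT_01s0010g03460 (r = 0.993) and VIT_16s0115g00140 (r = 0.983). An r over the MR groups takes in the cultivar difference and leaves out the stage change. VIT_16s0115g00140 averaged 12.5 FPKM at MR and 13.7 FPKM at PV in Sangiovese, and 25.4 and 23.7 FPKM in Cabernet Sauvignon. For AOMT2 the closest gene was VIT_03s0017g00870, an ID of the late anthocyanin list, both over the 24 groups (r = 0.976) and over the 12 MR groups (r = 0.996). It was followed by VIT_03s0063g01220 over the 24 groups (r = 0.972) and VIT_07s0095g00170 over the MR groups (r = 0.993). VIT_07s0095g00170 averaged 12.1 FPKM at MR and 18.1 FPKM at PV in Cabernet Sauvignon, and 0.0299 and 0.0267 FPKM in Sangiovese.

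VIT_03s0017g00870 had 3.35 ± 0.657 FPKM in Sangiovese and 73.7 ± 27.3 FPKM in Cabernet Sauvignon at MR (SD, n = 18 each). At PV it had 0.127 ± 0.0914 FPKM in Sangiovese and 1.48 ± 0.284 FPKM in Cabernet Sauvignon, so that, as for AOMT2, Cabernet Sauvignon at MR held the highest mean. AOMT1 and AOMT2 had r = 0.828 with each other over the 24 groups and r = 0.961 over the 12 MR groups, where AOMT2 ranked 11th among the genes most like AOMT1. The 135 genes most like a member are the top 1% of those ranked. Over the 24 groups, those of AOMT1 held 5 of the 8 late-step genes and 0 of the 9 shared-step genes. They held 0 of the 5 flavonoid 3',5'-hydroxylase IDs that reached 10 FPKM. For AOMT2 over the 24 groups, they held 1 of the 8 late-step genes and 3 of these 5 IDs. Over the MR groups, 3 of the 5 flavonoid 3',5'-hydroxylase IDs that reached 10 FPKM were among the 135 genes most like each of the tested members. Of the 8 late-step genes, 3 were among those of AOMT1 and 2 among those of AOMT2.

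The stretch of IDs around the members was described row by row, from VIT_01s0010g03400 to VIT_01s0010g03600, which holds 19 rows. Besides AOMT1 and AOMT2, 1 row had the same shape, higher at MR than at PV within each cultivar and highest in Cabernet Sauvignon at MR. VIT_01s0010g03460, which the files do not name, held 1.77 ± 0.652 FPKM in Sangiovese and 7.53 ± 2.42 FPKM in Cabernet Sauvignon at MR, and 0.12 ± 0.0952 and 0.277 ± 0.152 FPKM at PV (SD, n = 18 each). Its difference between MR and PV was 1.99 (SE 0.041, adjusted p = 4.8e-43), and its cultivar difference at MR was -1.60 (SE 0.058, adjusted p = 1.3e-30). It was also the row most like AOMT1 among the MR groups, as given above.

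The rest of the stretch did not share this shape. VIT_01s0010g03450, VIT_01s0010g03480, VIT_01s0010g03500 and VIT_01s0010g03520 were at 0 in all 72 libraries. VIT_01s0010g03530 moved the other way, with 0.150 and 0.0419 FPKM at MR in Sangiovese and Cabernet Sauvignon and 2.77 and 4.40 FPKM at PV (difference between MR and PV -1.90, SE 0.033, adjusted p = 9.3e-47). The most abundant row, VIT_01s0010g03600, averaged 181 FPKM in Sangiovese and 296 FPKM in Cabernet Sauvignon at MR, and 288 and 362 FPKM at PV.

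**Figure D5:**
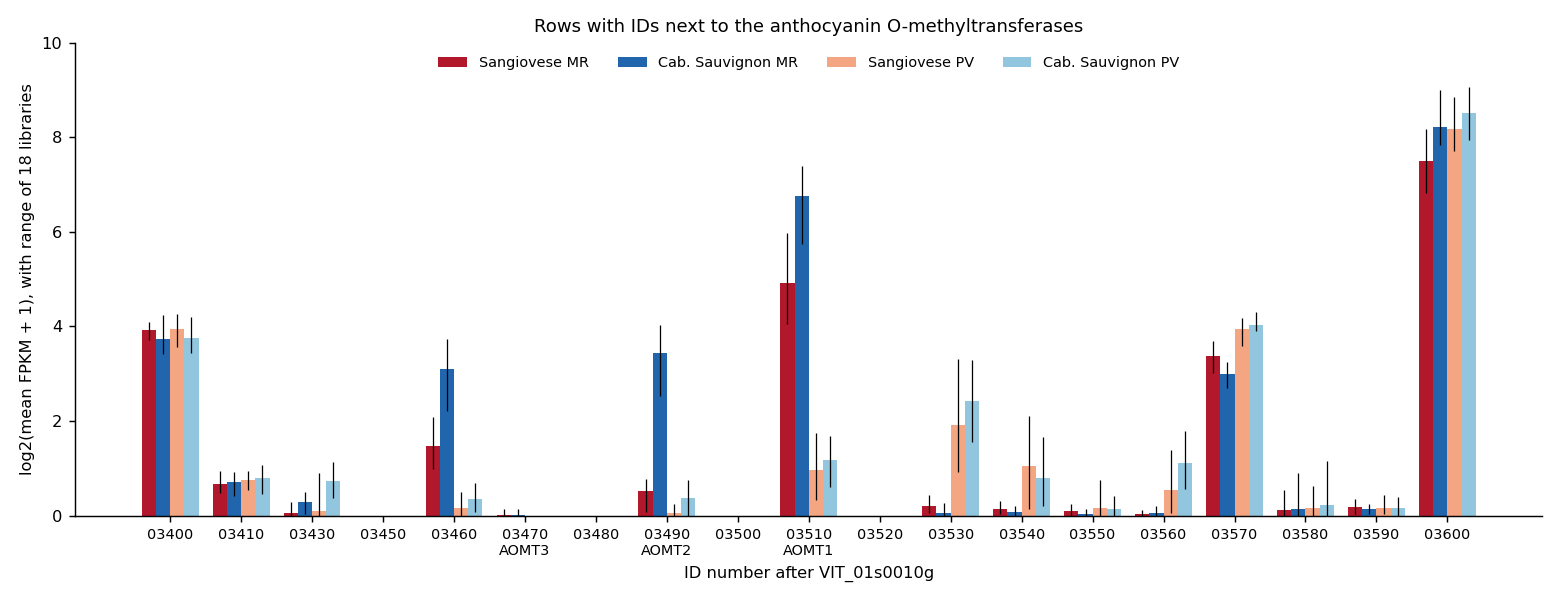
Mean levels of the 19 rows with IDs from VIT_01s0010g03400 to VIT_01s0010g03600, as log2(mean FPKM + 1), in Sangiovese and Cabernet Sauvignon at MR and PV; thin lines span the lowest to the highest of 18 libraries. AOMT1, AOMT2 and VIT_01s0010g03460 are higher at MR than at PV within each cultivar and highest in Cabernet Sauvignon at MR. For AOMT2 the Sangiovese MR mean lies beside the Cabernet Sauvignon PV mean.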

How the data were processed

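Non-directional TruSeq libraries of total RNA from berry pericarp carry no strand, per the labels' protocols. Tools in the submitters' processing notes are Cufflinks 2.1.1, TopHat2 2.0.9 and CASAVA 1.8.2, while the genome build and gene annotation were not given in the sources used here. Per library the authors deposited FPKM in 1 column. Because FPKM sets each gene against its library, strong increases of a few genes push the others down; the 10 most abundant genes took 17.1% to 27.3% of summed FPKM at MR and 7.48% to 16.3% at PV. Absolute depth is unknown. Relative depth came from the ratios of values of 3605 low genes between pairs of libraries. The most common ratio in a pair was taken as that of 1 fragment in each. The value of 1 fragment of a gene was then fitted as its most recurrent depth-adjusted value. At these fitted values, 86.6% of values under 3.5 fragments lay within 0.1 of a whole number.

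From these values, limma 3.58.1 under R 4.3.3 was fitted to log2(FPKM + 1) with 24 group means, 48 residual degrees of freedom and a spread following mean expression (eBayes with trend). Contrasts compared stages, cultivars, seasons and areas, with F-tests for interactions. Shares and relations used exact permutation tests that went through every sign flip or pairing, computed with numpy 2.4.6. Ranks for Spearman's rho came from scipy 1.17.1. The exact paired permutation test was tested on simulated data. P-values measure the spread between replicates of a site. Alternatives covered pseudocounts of 0.1 and 5, filters, scaling, a robust spread, each stage alone, a minimum difference, single libraries left out and group means as units.

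The members and the lists were chosen with earlier results of these data known, and list IDs, recalled from published names, were not checked against an annotation: 0 of 29971 IDs matched the 29591 genes of the RefSeq table at hand. Genes other than members were named by rule: for each tested member, the 2 with the highest r over the 24 groups and the 2 over the 12 MR groups, and rows of the ID stretch.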

Additional observations from a re-analysis of the deposited data

Results flagged for a closer look

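Several results differed between groups by a test of the difference itself. The stage difference differed between Sangiovese and Cabernet Sauvignon for AOMT1 (-1.639, adjusted p = 1.8e-17) and for AOMT2 (-2.571, adjusted p = 1.3e-31). The cultivar difference at MR differed between environments for AOMT1 (F = 9.174, adjusted p = 1.1e-05) and for AOMT2 (F = 6.560, adjusted p = 2.4e-04). At PV it did so for AOMT1 (F = 3.705, adjusted p = 0.011). The season difference of AOMT1 differed between areas at MR (F = 6.702, adjusted p = 0.007) and at PV (F = 4.237, adjusted p = 0.037). All p-values here are from limma, adjusted over 20443 genes. AOMT1 at MR was farthest apart at Bolgheri in 2012, where Sangiovese averaged 16.4 FPKM and Cabernet Sauvignon 153 FPKM. The PV results of AOMT1 rest on levels of at most 2.37 FPKM.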

How the results depend on the processing

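The stage differences and the cultivar differences at MR over all environments of AOMT1 and AOMT2 kept their direction and their call under every alternative run, with 1 exception named below. The results that changed were mostly small differences at PV; the cause was not tested. At pseudocount 5, AOMT1 lost its calls for cultivar at PV (-0.078), season at PV (0.104; Sangiovese 0.109, Cabernet Sauvignon 0.10), cultivar by environment at PV (F = 0.703) and area by year at PV (F = 0.949), and season by cultivar at MR was called (-0.333). There the log2 ratio of AOMT1 to AOMT2 between Sangiovese and Cabernet Sauvignon at MR turned to -0.316 (exact permutation p = 0.062), against 1.005 with a pseudocount of 1. At pseudocount 0.1, AOMT1 lost area by year at MR (F = 3.709) and AOMT2 lost area (F = 1.803) and cultivar by environment (F = 2.076) at MR. AOMT2 there gained season at PV (0.507; Cabernet Sauvignon 0.791), area (F = 4.525), cultivar by environment (F = 4.272) and area by year (F = 4.621) at PV. Each stage fitted alone gave AOMT2 calls at PV for season (0.110; Cabernet Sauvignon 0.183), cultivar by environment (F = 3.856) and area by year (F = 4.708).

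Against a log2 difference of at least 1, the unchanged estimates for AOMT1 of cultivar at PV (-0.245), season at MR (-0.281; Sangiovese -0.474) and season at PV (0.325; Sangiovese 0.368, Cabernet Sauvignon 0.281) were not called, nor for AOMT2 those of stage in Sangiovese (0.450) and cultivar at PV (-0.318). With group means as the unit, AOMT1 was not called for cultivar at PV (-0.245), season at MR (-0.281) or season at PV (0.325). With no filter, season at PV in Cabernet Sauvignon (0.281) missed the threshold for AOMT1. Quantile normalization lost AOMT1's cultivar by environment (F = 2.465) and area by year (F = 2.156) at PV, and called AOMT2's season at PV in Cabernet Sauvignon (0.206). In alternatives added after seeing the data, season at MR without Bolgheri was -0.106 for AOMT1, and 0.007 in Sangiovese, which reversed its sign; without Bolgheri 2012, AOMT1's cultivar by environment at MR had F = 0.445.

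Leaving out each library in turn changed calls near the threshold. Among comparisons over several environments, these were for AOMT1 area by year at PV (F from 2.994 to 5.319, lost without any of 12 libraries), season at PV in Cabernet Sauvignon (0.230 to 0.328, lost without any of 11), cultivar by environment at PV (F from 2.368 to 4.651, lost without 1) and season by cultivar at MR (-0.502 to -0.317, called without any of 3). For AOMT2 they were season in Cabernet Sauvignon at MR (-0.217 to -0.066, called without 1) and at PV (0.155 to 0.224, called without any of 4). Within 1 cultivar or environment, calls at PV changed for AOMT1 in the Bolgheri and Riccione comparison of Sangiovese (without 50 libraries), area in each cultivar, Bolgheri against Montalcino in Cabernet Sauvignon and season at Montalcino in Cabernet Sauvignon (1 each), and cultivar at Bolgheri in 2011 (3) and Riccione in 2011 (2). For AOMT2 they changed for cultivar at PV at Bolgheri in 2012 (4), Riccione in 2011 (1) and Riccione in 2012 (2), season at PV in Cabernet Sauvignon at Bolgheri (4), and season at MR in Cabernet Sauvignon at Riccione (2) and Sangiovese at Bolgheri (1). The share at PV differed between Sangiovese and Cabernet Sauvignon by 12.087 to 14.061 points for AOMT1 and by -14.061 to -12.087 points for AOMT2, each past the threshold except without any of 3 libraries. Over all tested genes the median difference between MR and PV was -0.226, -0.061 with median-of-ratios scaling and 0.073 with quantile normalization. Relations on the linear scale kept their calls. Low AOMT2 levels in Sangiovese are limited by depth. No paired analysis was possible because the labels give no replicate numbers; shares and ratios were paired by environment instead.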

Other observations

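Since AOMT1 in Sangiovese at Bolgheri was lower at MR in 2012 than in 2011 by 1.44 on the log2 scale, the pathway lists were counted in the same contrast, after the AOMT1 value was seen. In limma, 0 of 8 late-step genes were higher and 2 lower in 2012, with a median difference of -0.07; with quantile normalization 1 was higher and 2 lower. Of 7 tested flavonoid 3',5'-hydroxylase IDs, 0 were higher and 4 lower, and their median was -0.59. Of 3 flavonoid 3'-hydroxylase IDs, 2 were higher and 0 lower, and their median was 0.76. Among the 9 genes of the shared steps, 3 were higher and 1 lower, and their median was -0.19. In this contrast 20.9% of all tested genes were lower in 2012, and whether any list departs from that share was not tested. The median over all tested genes was -0.003 there, and the share higher in 2012 is not given here. Whether the berries of the 2 seasons were equally far into ripening at this site was not tested.

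In the same area in 2012, 7 of 7 tested flavonoid 3',5'-hydroxylase IDs were lower in Sangiovese than in Cabernet Sauvignon at MR, with a median of -2.30, where 27.4% of all tested genes were lower. In 2011 there, 4 of 7 were lower and 0 higher, with a median of -1.68, where 20.9% of all tested genes were lower. In 2012 there, 2 of the 8 late-step genes were higher and 5 lower in Sangiovese, and 2 of the 9 shared-step genes were higher and 3 lower. All 3 flavonoid 3'-hydroxylase IDs and all 3 tannin genes were higher in Sangiovese in that contrast. With quantile normalization 2 of the 3 flavonoid 3'-hydroxylase IDs were. The median over all tested genes was 0.019 in that contrast, and the share higher in Sangiovese is not given here.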
